A study of Mus musculus with 4 samples.

Results

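The 48 genes described here copy the genome in S phase: they license and fire replication origins, build the polymerases, the sliding clamp and its loader, supply deoxynucleotides, copy chromatin and drive entry into S phase. They were taken by name from textbook replication and S phase roles, with earlier results of these data known. Each was found among the 35275 genes of the deposited tables. All 48 passed the minimum of 1 CPM (counts scaled to library size by the trimmed mean of M values) as a mean over the libraries. Expression was measured by bulk RNA sequencing of mouse natural killer (NK) cells, cytotoxic lymphocytes of the innate immune system, which were enriched from spleen with a kit and sorted for NK1.1 without CD3. There were 4 groups with 1 library each. The Irf4-/- injected library came from mice labelled as lacking the transcription factor IRF4 with B16-F10 melanoma cells, an established line, put into a vein 20 days before. WT injected came from wild-type mice given the same cells, Irf4-/- control from Irf4-/- mice not injected, and WT control from wild-type mice not injected. The series title names the C57BL/6 background for the wild-type mice. The age of the mice, how many were behind a library and how the Irf4 allele was made were not given in the sources used here.

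DNA replication is prepared in G1, when the origin recognition complex, CDC6 and CDT1 load the MCM2 to MCM7 helicase onto origins. At S phase entry cyclin E kinase and E2F transcription factors act, the kinase CDC7 with DBF4 and the factors CDC45 and GINS turn the loaded helicase on, and primase and the polymerases copy the strands behind it. Most spleen NK cells are at rest, and cells of this lineage divide during development and when activated. In a bulk library fewer cells in cycle and less of an RNA per cycling cell cannot be told apart.

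E2F factors bind the promoters of many replication genes, and CCAAT boxes bind the factor NF-Y. Of the 48 genes, 40 had a promoter window in the RefSeq table (GRCm38.p6), and the 250 bases before the RefSeq start were searched on both strands for the E2F letters, which were TTCCCGC and its relatives TTGGCGC as well as TTCGCGC as well as TTGCCGC. An E2F match was present in 19 of the 40 genes (47.5%), against 9.01% of the 27025 genes with a window. CCAAT was present in 23 (57.5%, against 37.5%), both kinds in the same gene's window in 15 (37.5%, against 3.27%), the CHR letters TTTGAA or TTTAAA in 9 (22.5%, against 28.1%) and the E-box CACGTG in 5 (12.5%, against 6.86%). The windows of 4 genes, all on the plus strand, are shown as examples. Rrm2 passed the test for both effects, Uhrf1 and Prim1 were among the 36 genes lowest in WT injected, and Rpa2 was highest there. They were chosen after the values were seen. Capitals mark E2F and CCAAT letters on either strand.
Rrm2 (chr12:24708004-24708253): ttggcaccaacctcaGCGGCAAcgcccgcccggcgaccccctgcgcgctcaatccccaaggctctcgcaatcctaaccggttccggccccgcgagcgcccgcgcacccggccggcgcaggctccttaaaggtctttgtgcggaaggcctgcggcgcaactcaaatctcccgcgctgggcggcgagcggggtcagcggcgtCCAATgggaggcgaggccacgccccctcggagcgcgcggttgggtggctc
Uhrf1 (chr17:56303087-56303336, the first of its 2 windows): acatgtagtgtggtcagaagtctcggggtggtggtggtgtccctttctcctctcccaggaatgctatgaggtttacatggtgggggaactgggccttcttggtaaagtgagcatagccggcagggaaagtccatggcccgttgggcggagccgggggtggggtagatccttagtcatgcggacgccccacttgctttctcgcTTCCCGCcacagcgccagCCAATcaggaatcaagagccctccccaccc
Prim1 (chr10:128014965-128015214): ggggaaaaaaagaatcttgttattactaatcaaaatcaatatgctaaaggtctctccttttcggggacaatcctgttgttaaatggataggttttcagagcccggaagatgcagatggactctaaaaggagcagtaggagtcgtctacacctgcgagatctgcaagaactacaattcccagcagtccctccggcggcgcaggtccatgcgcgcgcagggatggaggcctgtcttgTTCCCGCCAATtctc
Rpa2 (chr4:132768110-132768359): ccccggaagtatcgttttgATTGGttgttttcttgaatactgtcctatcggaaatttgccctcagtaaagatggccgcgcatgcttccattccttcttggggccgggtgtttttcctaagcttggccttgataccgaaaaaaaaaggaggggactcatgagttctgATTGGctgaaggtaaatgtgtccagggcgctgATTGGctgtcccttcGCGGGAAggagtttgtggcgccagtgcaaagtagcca
In Rrm2 the E2F letters, read as GCGGCAA, began 235 bases before the start and CCAAT began 50 before it. In Uhrf1 TTCCCGC began 48 bases before the start and CCAAT 30 before it. In Prim1 TTCCCGC began 15 bases before the start and ran into CCAAT, which began 9 before it, with a shared base. In Rpa2 the E2F letters, read as GCGGGAA, began 37 bases before the start, and CCAAT was read as ATTGG at 231, 84 and 52 bases before it. A match is a description of letters and shows no binding. The median log2 ratio of WT injected to WT control was -0.55 over the 19 genes with an E2F match and -0.38 over the 21 without one. That of Irf4-/- injected to WT injected was 0.28 with a match and 0.22 without, and neither difference was tested.

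Total counts were between 15878159 (Irf4-/- control) and 21104881 (WT control). No group had a replicate, so a ratio of 2 libraries compares those libraries and carries no p-value. The bracketed 95% intervals (exact, Clopper-Pearson) cover counting error only, and amplified reads without molecular identifiers may come from one molecule. Irf4 itself was at 12.7 CPM in Irf4-/- injected, 3.07 CPM in WT injected, 11.8 CPM in Irf4-/- control and 4.40 CPM in WT control, so it was higher in the libraries labelled Irf4-/-. Counts summed over the whole gene cannot check a deletion of part of it, and every genotype direction below rests on the labels. WT injected stood apart: it held the lowest CPM of the 4 libraries in 33.3% of 11870 genes and the highest in 33.8%, against 21.2% to 23% for each other library. Ratios that use it are given beside the pairs that do not. All 12 NK cell markers were detected, with a summed level of 17289 CPM in Irf4-/- injected, 15673 CPM in WT injected, 17085 CPM in Irf4-/- control and 15791 CPM in WT control, while all 8 T cell markers together reached 115.8 to 142 CPM. The 9 B cell markers, with none at 0, summed to 53.3 CPM in Irf4-/- injected, 30.8 CPM in WT injected, 75.8 CPM in Irf4-/- control and 71.1 CPM in WT control, so WT injected was lowest, as for most of the replication genes. Of these, Fcer2a fell with injection (edgeR, adjusted p = 0.0480), against 0.392% of all genes tested. The 7 dendritic cell markers, some of which NK cells also express, summed, mostly through Itgax, to 1260.3 CPM in Irf4-/- injected, 691 CPM in WT injected, 1127 CPM in Irf4-/- control and 901 CPM in WT control. The 10 erythroid markers summed to 110.2 CPM in Irf4-/- injected, 21.1 CPM in WT injected, 48.6 CPM in Irf4-/- control and 39.6 CPM in WT control. The 12 monocyte and macrophage markers had another order, with 79.9 CPM in Irf4-/- injected, 102 CPM in WT injected, 65.9 CPM in Irf4-/- control and 45.2 CPM in WT control. Among these 12, 2 rose and 1 fell with injection in edgeR (background 0.333% and 0.392%). For WT injected against WT control the 11 at 1 CPM or more had log2 ratios between -1.31 and 2.62. The 6 plasma cell markers summed to between 204 and 222 CPM, mostly through Ighm. Among them Igkc was at 2.47 CPM in Irf4-/- injected, 7.55 CPM in WT injected, 13.3 CPM in Irf4-/- control and 9.83 CPM in WT control. Jchain had 2 counts in Irf4-/- injected, 50 counts in WT injected, 57 counts in Irf4-/- control and 56 counts in WT control, so both were lowest in Irf4-/- injected. Platelet markers summed to between 13.3 and 22.7 CPM and neutrophil markers to between 0.215 and 0.917 CPM. The part of other cells in the results was not tested.

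The 48 genes together were lowest in WT injected. Their summed level was 2502 CPM in Irf4-/- injected, 2119 CPM in WT injected, 2765 CPM in Irf4-/- control and 2761 CPM in WT control, so the uninjected libraries were level and the injected ones were lower, WT more so. The log2 ratio of the sums was 0.24 (0.22 to 0.26) for Irf4-/- injected against WT injected and 0.00 (-0.02 to 0.02) for Irf4-/- control against WT control. It was -0.14 (-0.16 to -0.13) for Irf4-/- injected against Irf4-/- control and -0.38 (-0.40 to -0.36) for WT injected against WT control. WT injected had the lowest level of 36 of the 48 genes, against 33.3% of all genes. That order takes no account of counting error. Intervals for Irf4-/- injected against WT injected lay above 0 for 28 of the 48 genes (background 25.1%). Irf4-/- control had the highest level of 26 (background 22%) and WT control of 16 (background 23%). With WT injected left out, Irf4-/- control was the highest of the remaining libraries for 27.

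**Figure D1:**
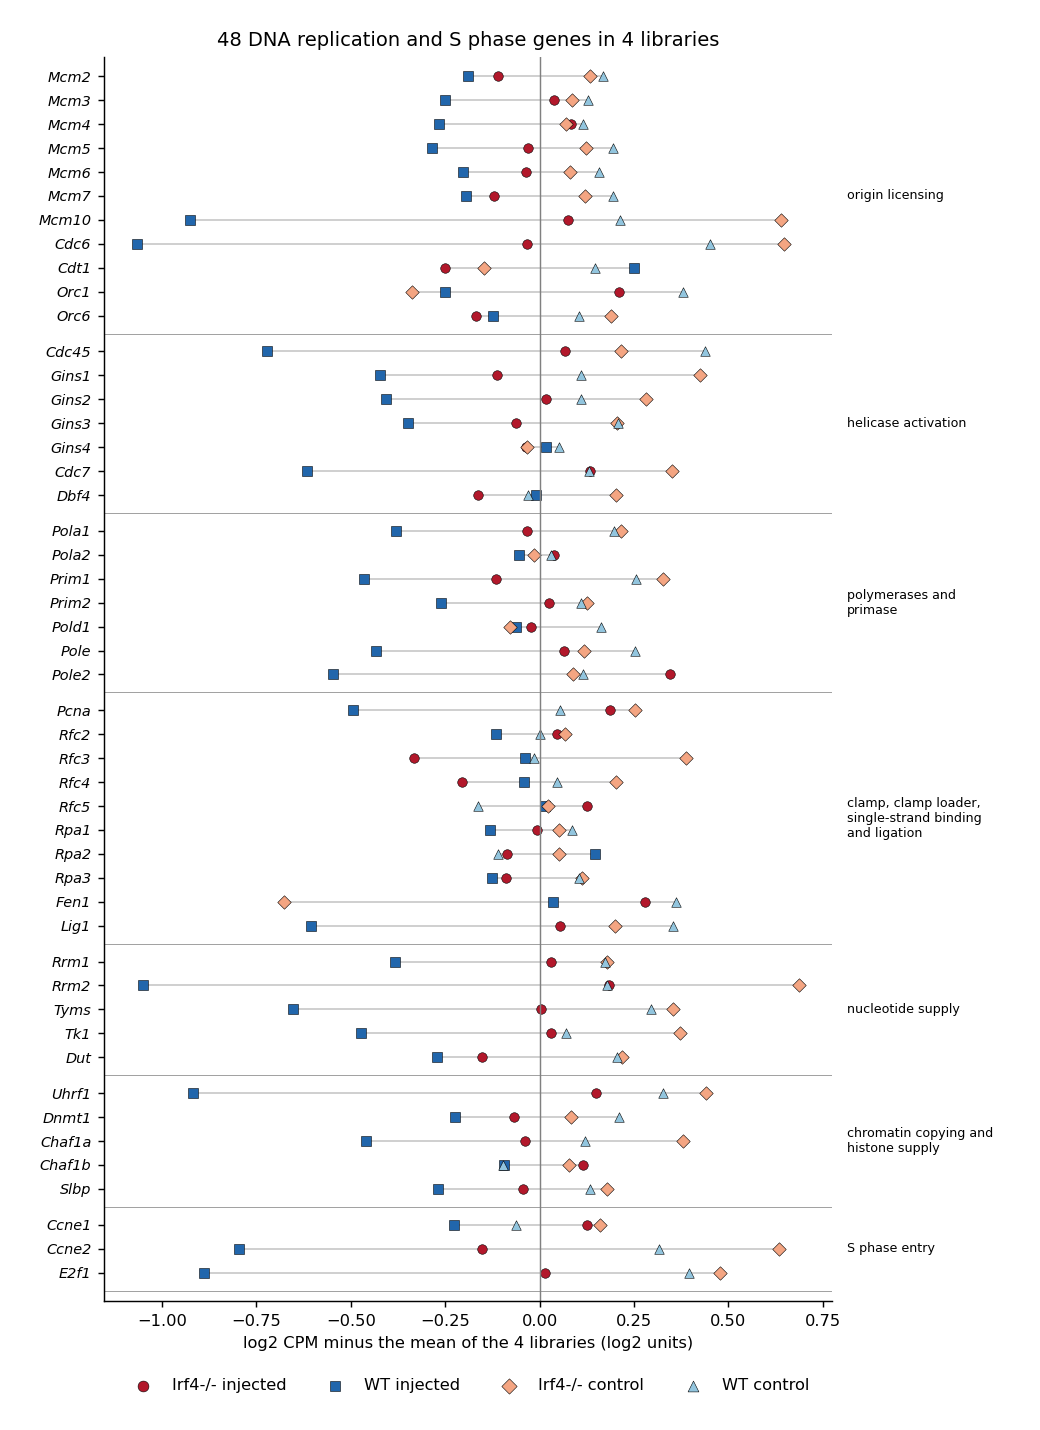
Level of each of the 48 genes in the 4 libraries, as log2 CPM minus the mean over the 4 libraries (x axis, log2 units), grouped by role. One point stands for 1 library, so there are no error bars. The WT injected squares are leftmost for 36 genes, not always beyond counting error. Exceptions such as Cdt1 and Rpa2 have them at the right.

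Rrm2 was the gene that passed the test for both effects. It encodes the small subunit of ribonucleotide reductase, which makes deoxynucleotides and is produced in S phase, and it lies on the plus strand of chromosome 12, 24708241 to 24714146 (GRCm38). It was at 41.7 CPM in Irf4-/- injected, 17.7 CPM in WT injected, 59.1 CPM in Irf4-/- control and 41.6 CPM in WT control, from 778 counts in Irf4-/- injected, 329 counts in WT injected, 941 counts in Irf4-/- control and 880 counts in WT control. WT injected was lowest and Irf4-/- control highest, and Irf4-/- injected was level with WT control. In edgeR's quasi-likelihood test on all 4 libraries, with additive terms for genotype and injection, Rrm2 rose by 0.85 with the Irf4-/- genotype (log2, SE 0.163, adjusted p = 0.0283) and fell by 0.85 with injection (SE 0.163, adjusted p = 0.0480). The spread behind these p-values is the departure of the 4 libraries from additivity, not the spread between animals. The fit has no term for an injection response that differs by genotype. Rrm2's own departure has 1 residual degree of freedom and is pooled with that of all genes tested through 9.62 prior degrees of freedom. In the pairs of libraries the log2 ratio was 1.23 (1.05 to 1.42) for Irf4-/- injected against WT injected and 0.51 (0.37 to 0.64) for Irf4-/- control against WT control. For injection it was -0.50 (-0.64 to -0.36) in Irf4-/- and -1.22 (-1.42 to -1.04) in WT. Without WT injected the genotype value is therefore 0.51 and the injection value -0.50, each from 1 pair. The injection call was lost with limma-voom (adjusted p = 0.0618), and both calls were lost with limma on FPKM (adjusted p = 0.385 for genotype and 0.319 for injection); over all alternatives the adjusted p ran between 1.40e-07 and 0.963 for genotype and between 1.91e-07 and 0.557 for injection.

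Of the 48 genes, 1 rose and 0 fell with the Irf4-/- genotype, against 1.22% and 0.258% of all 11998 genes tested. With injection 0 rose and 1 fell, against 0.333% and 0.392%. At an unadjusted p under 0.05, 7 genes were higher and 1 was lower with genotype (background 6.03% and 4.38%). For injection 25 genes were lower and 0 higher at that level (background 6.84% and 7.33%), in edgeR; with DESeq2 the adjusted calls were 1 for genotype and 1 for injection. The log2 change with genotype was above 0 for 41 of 48 genes (background 49.7%), with a median of 0.15, and the log2 change with injection was below 0 for 43 of 48 (background 49.5%), with a median of -0.31. Next to Rrm2 for genotype stood Cdt1 at -0.40 (adjusted p = 0.145), Pcna at 0.44 (adjusted p = 0.169) and Uhrf1 at 0.57 (adjusted p = 0.281). Next for injection stood Cdc6 at -1.08 (SE 0.231, adjusted p = 0.0680), Prim1 at -0.58 (adjusted p = 0.0942), Ccne2 at -0.94 (adjusted p = 0.0942) and E2f1 at -0.86 (adjusted p = 0.109).

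A rule of size was used for single pairs: a gene was counted when its ratio was at least 1.5-fold and its counting interval excluded 0. In Irf4-/- injected against WT injected 12 of the 48 genes were higher and 0 lower, against 5.88% and 4.95% of 11870 genes; at 2-fold 3 were higher and 0 lower (background 2.05% and 1.68%), and intervals lay above 0 for 28 and below 0 for 3 (background 25.1% and 25.3%). The 12 were Rrm2, Uhrf1, Cdc6, Mcm10, E2f1, Pole2, Cdc45, Cdc7, Pcna, Lig1, Tyms and Ccne2. In Irf4-/- control against WT control 0 were higher and 1, Orc1, was lower, against 3.88% and 1.67%; at 2-fold there were 0 and 0 (background 1.62% and 0.463%), and intervals lay above 0 for 11 and below 0 for 6 (background 17.1% and 16.6%). In Irf4-/- injected against Irf4-/- control 0 were higher and 3 lower (Ccne2, Rfc3 and Cdc6), against 2.91% and 2.82%; at 2-fold there were 0 and 0 (background 0.792% and 0.96%), and intervals lay above 0 for 0 and below 0 for 29 (background 18.7% and 18.9%). In WT injected against WT control 0 were higher and 14 lower, against 7.15% and 5.93%; at 2-fold 0 were higher and 7 lower (background 2.85% and 1.75%), and intervals lay above 0 for 2 and below 0 for 36 (background 28.4% and 28%). The 14 were Cdc6, E2f1, Uhrf1, Rrm2, Cdc45, Mcm10, Ccne2, Lig1, Tyms, Cdc7, Prim1, Pole, Pole2 and Orc1. Pairs that share a library, such as the pairs with WT injected, are not independent of each other. The median log2 ratio over the 48 genes was 0.29 for Irf4-/- injected against WT injected and 0.03 for Irf4-/- control against WT control. It was -0.18 for injection in Irf4-/- and -0.45 for injection in WT, and the median of all genes lay between -0.0029 and 0.0012 in the 4 pairs.

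**Figure D2:**
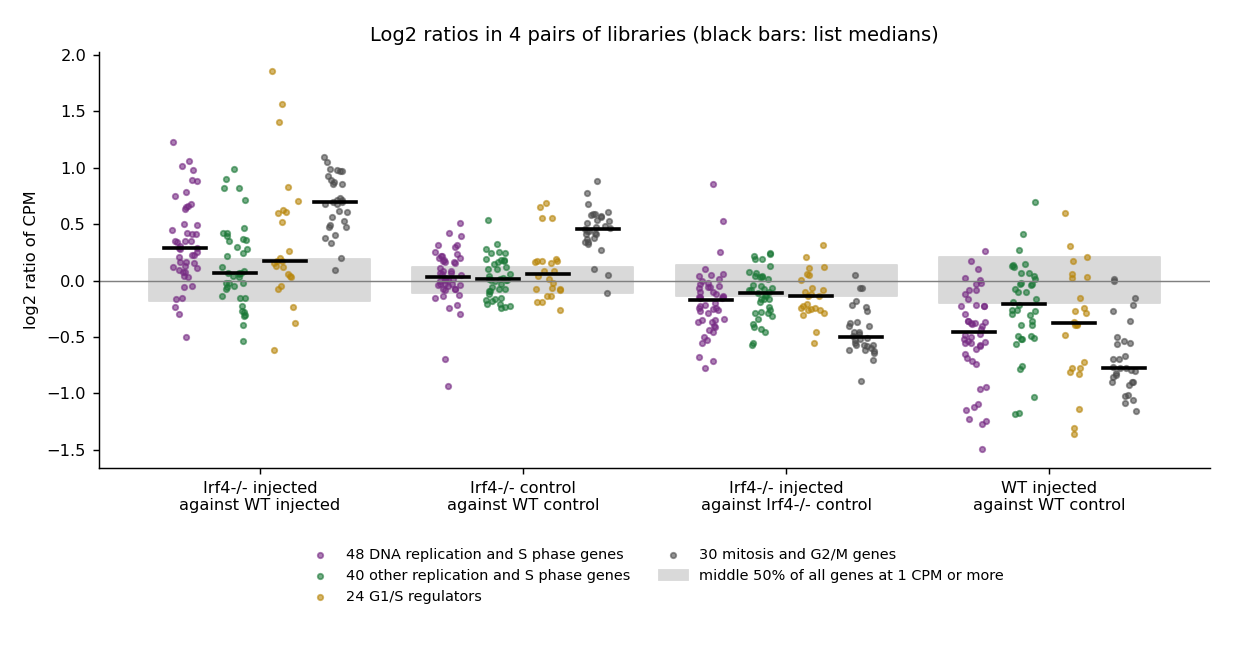
Log2 ratio of each gene (points, y axis) and the list median (black bar) in 4 pairs of libraries for the 48 replication genes and 3 other lists; the grey box spans the middle 50% of all genes. The 48 genes have medians of 0.29 for Irf4-/- injected against WT injected, 0.03 for Irf4-/- control against WT control, -0.18 for Irf4-/- injected against Irf4-/- control and -0.45 for WT injected against WT control.

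All 3 S phase entry genes, E2f1, Ccne2 and Ccne1, were lowest in WT injected. E2f1, a transcription factor that switches on replication genes, was at 12.7 CPM in Irf4-/- injected, 6.79 CPM in WT injected, 17.5 CPM in Irf4-/- control and 16.5 CPM in WT control. Its log2 ratio was 0.89 (0.59 to 1.23) for Irf4-/- injected against WT injected, -0.46 (-0.72 to -0.21) for injection in Irf4-/- and -1.27 (-1.59 to -0.99) for injection in WT. Ccne2, a cyclin that activates CDK2 at the G1 to S boundary, was at 6.49 CPM in Irf4-/- injected, 4.15 CPM in WT injected, 11.2 CPM in Irf4-/- control and 8.98 CPM in WT control, with an injection ratio of -0.78 (-1.13 to -0.44) in Irf4-/- and -1.09 (-1.51 to -0.72) in WT, both below 0. Its relative Ccne1 had the highest mean FPKM, a level corrected for gene length, of the 3 (7.29) and differed less between libraries, at 15.8 CPM in Irf4-/- injected, 12.4 CPM in WT injected, 16.2 CPM in Irf4-/- control and 13.9 CPM in WT control. The injection ratio of Ccne1 in WT was -0.16 (-0.42 to 0.09), with an interval that included 0.

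The 11 origin licensing genes had a median log2 ratio of 0.25 for Irf4-/- injected against WT injected, and -0.15 for injection in Irf4-/- and -0.38 in WT. Mcm2 to Mcm7, the 6 subunits of the replicative helicase, were lowest in WT injected in every case. For Mcm2 and Mcm7 this was within counting error: Irf4-/- injected against WT injected stood at 0.08 (-0.03 to 0.18) and 0.07 (-0.04 to 0.18). Injection ratios of the 6 subunits lay between -0.24 and 0.01 in Irf4-/- and between -0.48 and -0.36 in WT. Mcm6, the highest of them at a mean of 42.7 FPKM, was at 181 CPM in Irf4-/- injected, 161 CPM in WT injected, 196 CPM in Irf4-/- control and 206 CPM in WT control, and its injection ratio was -0.12 (-0.19 to -0.05) in Irf4-/- and -0.36 (-0.43 to -0.29) in WT. Cdc6, the ATPase that helps load the ring, was at 9.60 CPM in Irf4-/- injected, 4.69 CPM in WT injected, 15.4 CPM in Irf4-/- control and 13.4 CPM in WT control. Its injection ratio was -0.68 (-0.97 to -0.40) in Irf4-/- and -1.495 (-1.88 to -1.17) in WT, where it was the lowest of the 48. Mcm10, which joins the helicase when it is turned on, was at 7.78 CPM in Irf4-/- injected, 3.88 CPM in WT injected, 11.5 CPM in Irf4-/- control and 8.55 CPM in WT control, higher in Irf4-/- by 0.98 (0.58 to 1.43) among injected mice and by 0.42 (0.12 to 0.73) among uninjected mice. Cdt1, the partner of CDC6 in loading, had another order, at 47.1 CPM in Irf4-/- injected, 66.6 CPM in WT injected, 50.6 CPM in Irf4-/- control and 62.1 CPM in WT control, with the injected and uninjected Irf4-/- libraries both below both WT libraries. Its genotype ratio was -0.50 (-0.63 to -0.37) among injected mice and -0.29 (-0.42 to -0.17) among uninjected mice. Orc6, another subunit of the origin recognition complex, was at 14.5 CPM in Irf4-/- injected, 14.9 CPM in WT injected, 18.5 CPM in Irf4-/- control and 17.5 CPM in WT control. Orc1, its ATPase subunit, rested on few reads and was at 3.49 CPM in Irf4-/- injected, 2.53 CPM in WT injected, 2.39 CPM in Irf4-/- control and 3.92 CPM in WT control, with an injection ratio of 0.53 (-0.05 to 1.16) in Irf4-/- and -0.61 (-1.18 to -0.10) in WT.

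The 7 helicase activation genes had a median log2 ratio of 0.30 for Irf4-/- injected against WT injected, and -0.26 for injection in Irf4-/- and -0.52 in WT. Cdc45, which joins MCM and GINS in the active helicase, was at 12.9 CPM in Irf4-/- injected, 7.44 CPM in WT injected, 14.3 CPM in Irf4-/- control and 16.6 CPM in WT control. WT injected was the low library: the injection ratio was -0.15 (-0.42 to 0.12) in Irf4-/- and -1.15 (-1.46 to -0.87) in WT. Cdc7, the kinase that fires origins, was at 23.0 CPM in Irf4-/- injected, 13.6 CPM in WT injected, 26.7 CPM in Irf4-/- control and 22.9 CPM in WT control. Its regulatory subunit Dbf4 was at 28 CPM in Irf4-/- injected, 31.1 CPM in WT injected, 36.1 CPM in Irf4-/- control and 30.7 CPM in WT control. Cdc7 and Dbf4 thus had different orders, since Dbf4 was lowest in Irf4-/- injected. For Dbf4 the ratio of Irf4-/- injected to WT injected was -0.15 (-0.33 to 0.02), with an interval that included 0. Gins1, Gins2 and Gins3, which with Gins4 make the GINS complex, had injection ratios between -0.53 and -0.26 in Irf4-/- and between -0.55 and -0.50 in WT. Gins4, the GINS subunit with the highest FPKM (mean 26.2), was nearly level, at 34.8 CPM in Irf4-/- injected, 36.1 CPM in WT injected, 34.9 CPM in Irf4-/- control and 37.0 CPM in WT control.

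The 7 polymerase and primase genes had a median log2 ratio of 0.35 for Irf4-/- injected against WT injected, and -0.05 for injection in Irf4-/- and -0.57 in WT. Prim1, the catalytic primase subunit that lays down RNA primers, was at 26.3 CPM in Irf4-/- injected, 20.7 CPM in WT injected, 35.8 CPM in Irf4-/- control and 34.0 CPM in WT control, below the matched control in both genotypes, at -0.44 (-0.62 to -0.26) in Irf4-/- and -0.72 (-0.90 to -0.54) in WT. Pole2, an accessory subunit of the leading-strand polymerase epsilon, was at 13.5 CPM in Irf4-/- injected, 7.28 CPM in WT injected, 11.3 CPM in Irf4-/- control and 11.5 CPM in WT control. Its injection ratio was 0.25 (-0.02 to 0.54) in Irf4-/-, where the interval spanned 0, and -0.66 (-0.98 to -0.35) in WT. Pold1, the catalytic subunit of the lagging-strand polymerase delta, had the highest mean FPKM of the group (27.7) and lay between 91.5 and 108 CPM. The other members lay between 15.0 CPM (Prim2, WT injected) and 58.1 CPM (Pola2, Irf4-/- injected).

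The 10 clamp, clamp loader, single-strand binding and ligation genes had a median log2 ratio of 0.12 for Irf4-/- injected against WT injected, and -0.10 for injection in Irf4-/- and -0.17 in WT. Pcna, the sliding clamp that holds polymerases on DNA, was the most abundant by length (mean 134.7 FPKM). It was at 228 CPM in Irf4-/- injected, 142 CPM in WT injected, 239 CPM in Irf4-/- control and 208 CPM in WT control, and the WT injected library was the low one, with a log2 ratio of 0.68 (0.61 to 0.75) for Irf4-/- injected against WT injected and 0.20 (0.13 to 0.26) for Irf4-/- control against WT control. Lig1, the ligase that joins Okazaki fragments, was at 49.1 CPM in Irf4-/- injected, 31.1 CPM in WT injected, 54.4 CPM in Irf4-/- control and 60.5 CPM in WT control. Its injection ratio was -0.15 (-0.28 to -0.01) in Irf4-/- and -0.96 (-1.10 to -0.82) in WT. Rpa2, a subunit of the single-strand binding protein, was at 56.7 CPM in Irf4-/- injected, 66.6 CPM in WT injected, 62.4 CPM in Irf4-/- control and 55.7 CPM in WT control, highest in WT injected. The remaining genes of the group, Rfc2, Rfc4, Rfc5, Rpa1 and Rpa3, had injection ratios between -0.40 and 0.10 in Irf4-/- and between -0.23 and 0.18 in WT. Of these, the clamp loader subunit Rfc5 was at 33.8 CPM in Irf4-/- injected, 31.4 CPM in WT injected, 31.5 CPM in Irf4-/- control and 27.7 CPM in WT control, lowest in WT control, with an injection ratio of 0.10 (-0.07 to 0.27) in Irf4-/- and 0.18 (0.01 to 0.35) in WT. Another clamp loader subunit, Rfc3, was at 12.4 CPM in Irf4-/- injected, 15.2 CPM in WT injected, 20.4 CPM in Irf4-/- control and 15.5 CPM in WT control, lowest in Irf4-/- injected, with an injection ratio of -0.72 (-0.97 to -0.47) in Irf4-/- and -0.02 (-0.26 to 0.21) in WT. Fen1, the flap nuclease of Okazaki fragment processing, had 25 counts in Irf4-/- injected, 21 counts in WT injected, 11 counts in Irf4-/- control and 30 counts in WT control. Its log2 ratio was -0.93 (-2.18 to 0.00) for Irf4-/- control against WT control and 0.86 (-0.12 to 2.13) for injection in Irf4-/-. In GENCODE, 84.2% of the exonic bases of Fen1 overlap genes on the opposite strand, so its counts are uncertain.

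In the nucleotide supply group all 5 genes were lowest in WT injected. Rrm1, the large subunit of ribonucleotide reductase, was at 78.8 CPM in Irf4-/- injected, 59.2 CPM in WT injected, 87.5 CPM in Irf4-/- control and 87.1 CPM in WT control, and its injection ratio was -0.15 (-0.26 to -0.04) in Irf4-/- and -0.56 (-0.67 to -0.45) in WT. Tyms, thymidylate synthase, was at 13.4 CPM in Irf4-/- injected, 8.47 CPM in WT injected, 17.03 CPM in Irf4-/- control and 16.4 CPM in WT control. Tk1, the salvage enzyme thymidine kinase, was at 25.05 CPM in Irf4-/- injected, 17.7 CPM in WT injected, 31.7 CPM in Irf4-/- control and 25.8 CPM in WT control. Dut, which removes dUTP, was at 25.5 CPM in Irf4-/- injected, 23.5 CPM in WT injected, 32.9 CPM in Irf4-/- control and 32.7 CPM in WT control, with the injected libraries lower in both genotypes. The interval of Dut for Irf4-/- injected against WT injected included 0, at 0.12 (-0.07 to 0.31). The summed level of the 5 genes was 184.4 CPM in Irf4-/- injected, 126.6 CPM in WT injected, 228.3 CPM in Irf4-/- control and 203.5 CPM in WT control. GENCODE names pseudogene copies of Tyms and Pcna, whose reads may be split between copies.

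The 5 chromatin copying and histone supply genes had a median log2 ratio of 0.22 for Irf4-/- injected against WT injected, and -0.22 for injection in Irf4-/- and -0.43 in WT. Uhrf1, which brings DNA methyltransferase to newly copied DNA, was at 38.3 CPM in Irf4-/- injected, 18.3 CPM in WT injected, 46.9 CPM in Irf4-/- control and 43.4 CPM in WT control, at 1.06 (0.88 to 1.26) for Irf4-/- injected against WT injected and 0.11 (-0.03 to 0.25) for Irf4-/- control against WT control. For injection it was -0.29 (-0.44 to -0.14) in Irf4-/- and -1.24 (-1.43 to -1.07) in WT. Its partner Dnmt1, the maintenance methyltransferase, had the most counts of the 48 genes and was at 309 CPM in Irf4-/- injected, 277 CPM in WT injected, 343 CPM in Irf4-/- control and 374 CPM in WT control. Slbp, which binds histone mRNA, was at 117 CPM in Irf4-/- injected, 99.8 CPM in WT injected, 136 CPM in Irf4-/- control and 132 CPM in WT control. The chromatin assembly subunits Chaf1a and Chaf1b differed: Chaf1a was at 16.04 CPM in Irf4-/- injected, 12.0 CPM in WT injected, 21.4 CPM in Irf4-/- control and 17.9 CPM in WT control, and Chaf1b lay between 11.6 and 13.4 CPM. In GENCODE, 52.5% of the exonic bases of Chaf1a and 67.3% of those of Gins2 overlap a gene on the other strand, and whether counting used strand was not stated.

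**Figure D3:**
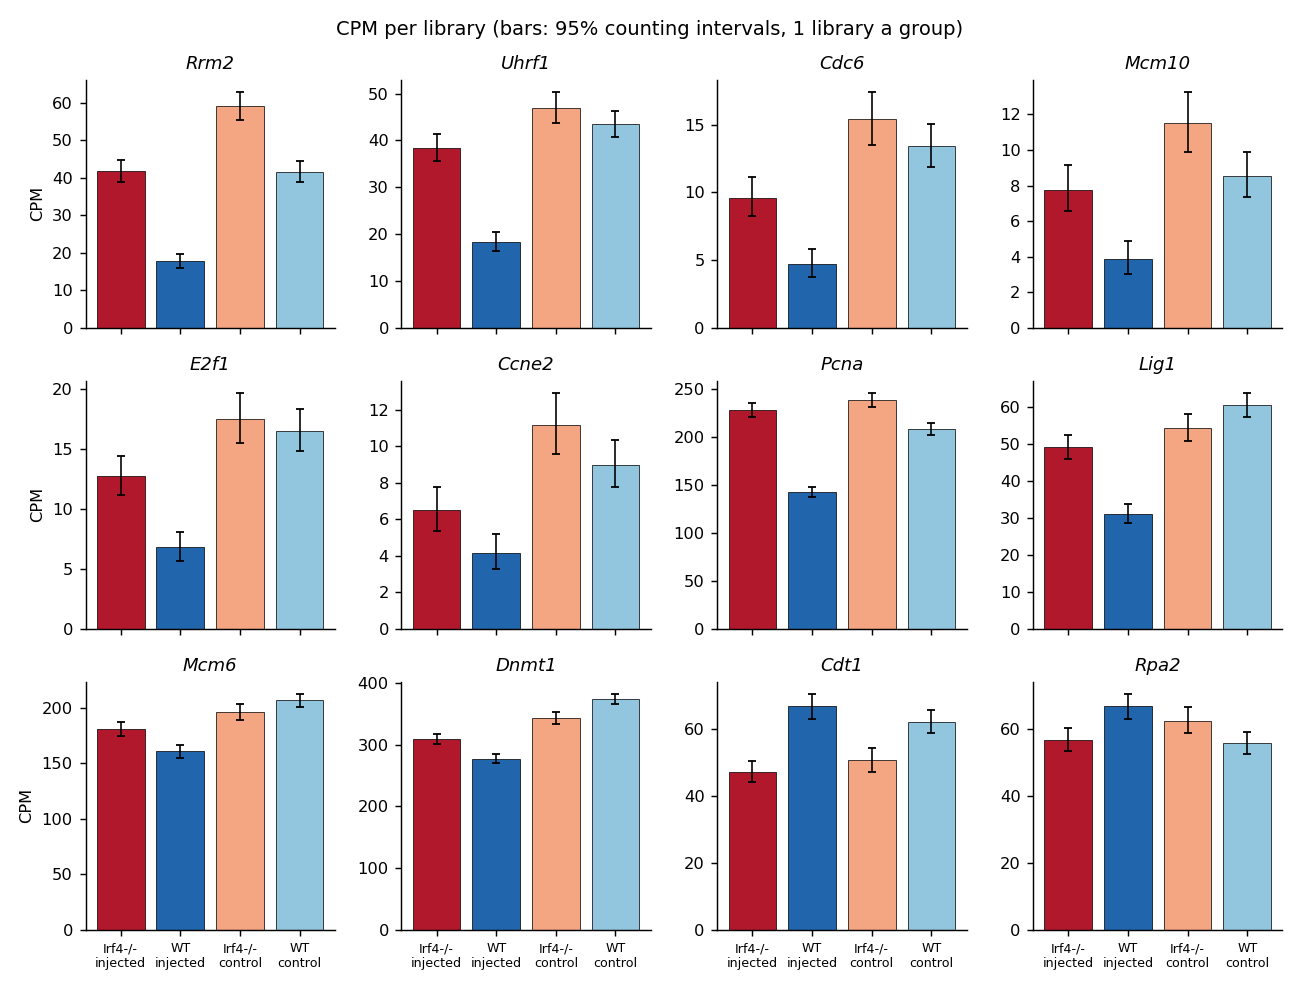
CPM (y axis, from 0) of 12 genes in the 4 libraries; each bar is 1 library and the whiskers are 95% counting intervals. WT injected is the lowest bar for 10 of them, and the highest for Cdt1 and Rpa2.

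The injection ratio was greater, that is less negative, in Irf4-/- than in WT for 40 of the 48 genes (background 50.5%). The median difference was 0.27 against 0.003 over all genes. This difference equals the genotype ratio among injected mice minus that among uninjected mice, so it is not a separate result. It rests on the single WT injected library as well, and the difference between genotypes cannot be tested with 1 library per group. Counting intervals lay below 0 in both injection pairs for 24 genes (background 10.1%). They lay above 0 in both genotype pairs for 7 (background 7.67%). Of the 8 genes with a more negative ratio in Irf4-/-, Rfc3, Rpa2, Dbf4 and Rfc4 were farthest, with differences between -0.69 and -0.32. Intervals on opposite sides of 0 were seen for Rpa2, at -0.14 (-0.26 to -0.01) in Irf4-/- and 0.26 (0.14 to 0.37) in WT. Of all genes, 18.9% had an interval below 0 for injection in Irf4-/- and 28.4% had one above 0 in WT. The share of all genes with both was not counted.

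**Figure D4:**
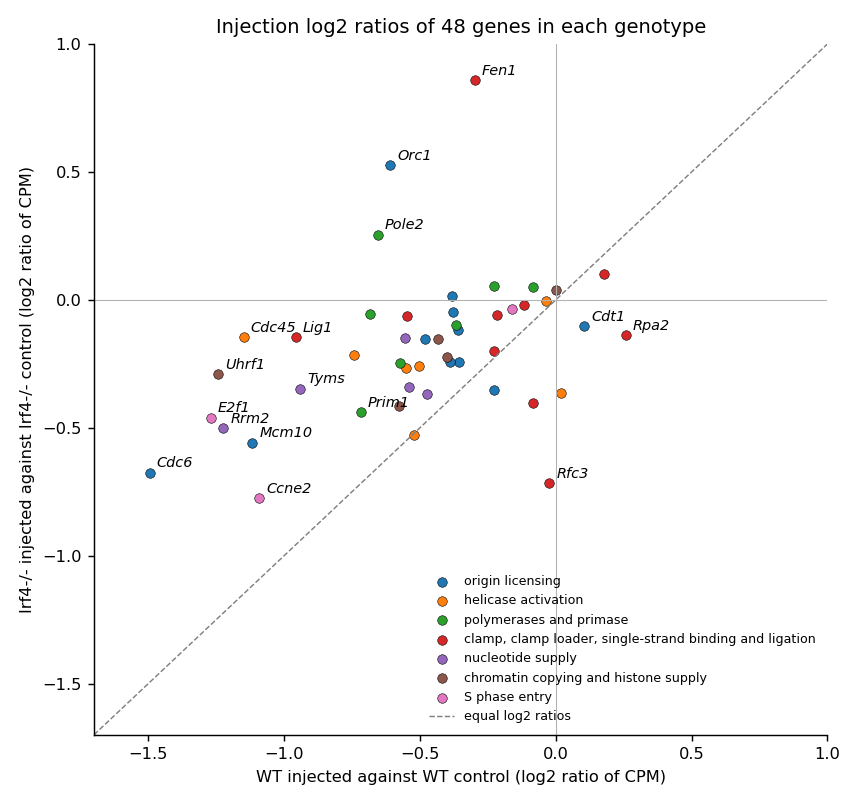
Log2 ratio of injected to control in Irf4-/- (y axis) against that in WT (x axis) for the 48 genes, coloured by role, with the line of equal ratios. Points above the line, 40 of 48, had the greater ratio in Irf4-/-; Rfc3 and Rpa2 lie below it.

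On the FPKM scale, which is per length, subunits of a complex could be set beside each other. For some genes the lengths behind the deposited FPKM differ from the exonic bases in GENCODE. Each ratio between subunits below therefore depends on the length used. In the MCM2 to MCM7 ring the highest level (Mcm6) was 1.98 times the lowest (Mcm3) in Irf4-/- injected, 2.15 times in WT injected, 2.07 times in Irf4-/- control and 2.12 times in WT control. In the single-strand binding protein RPA the highest subunit was 1.11 (WT injected) to 1.29 (WT control) times the lowest. GINS and the clamp loader were less even: Gins4 was 19.1 to 31.9 times Gins2, and Rfc2 was 9.61 to 15.6 times Rfc3. In GENCODE Gins2 has 4097 exonic bases, of which 67.3% overlap a gene on the opposite strand, and Gins4 has 1349. The ratio of Gins4 to Gins2 therefore depends on the length used, and the counts of Gins2 are uncertain. In CPM Gins4 was at 34.8 and Gins2 at 4.34 in Irf4-/- injected. In ribonucleotide reductase the order of the subunits by deposited FPKM differed between libraries. Rrm2 and Rrm1 stood at 19.03 and 19.7 FPKM in Irf4-/- injected and at 8.05 and 14.7 FPKM in WT injected. They stood at 27.0 and 21.9 FPKM in Irf4-/- control and at 19.01 and 21.8 FPKM in WT control. By the deposited FPKM Rrm2 was thus above Rrm1 in 1 library and furthest below it in WT injected. In GENCODE Rrm1 has 11012 exonic bases and Rrm2 has 2771. Which of these subunits is the higher in a library therefore depends on the length used.

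**Figure D5:**
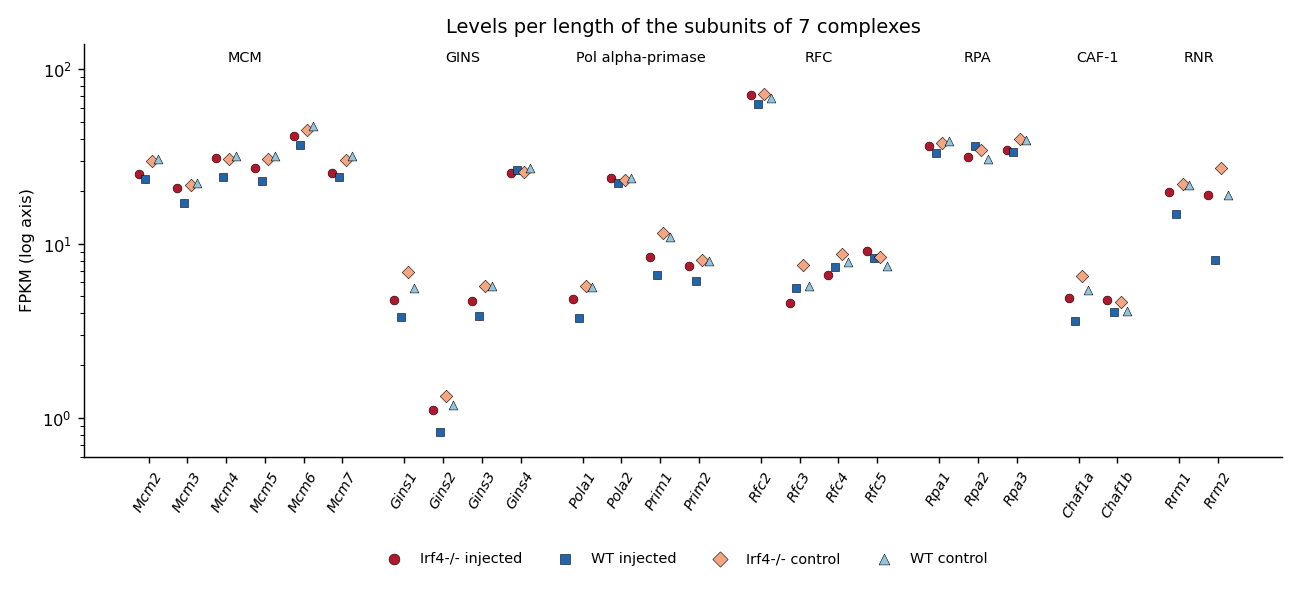
FPKM of the subunits of replication complexes in the 4 libraries (y axis, log scale), 1 point per library. By the deposited FPKM the MCM subunits lie within 2.15-fold of each other in every library. Rrm2 is furthest below Rrm1 in WT injected (8.05 against 14.7 FPKM). How subunits compare depends on the gene lengths used.

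Of 40 other replication and S phase genes 0 rose and 0 fell for either effect in edgeR. At an unadjusted p under 0.05 stood 6 for genotype, 5 of them higher, and 11 for injection, 1 of them higher. Of all 11998 genes tested, 6.03% were higher and 4.38% lower at that level for genotype, and 7.33% higher and 6.84% lower for injection. The shares of all genes that rose and fell were 1.22% and 0.258% for genotype, and 0.333% and 0.392% for injection. The median log2 ratio of the 40 genes was 0.07 for Irf4-/- injected against WT injected and 0.01 for Irf4-/- control against WT control. It was -0.11 for injection in Irf4-/- and -0.21 for injection in WT. Clspn, a checkpoint adaptor at forks, was at 20.2 CPM in Irf4-/- injected, 10.7 CPM in WT injected, 26.4 CPM in Irf4-/- control and 22.1 CPM in WT control. Dna2, a nuclease of Okazaki fragments, was at 7.62 CPM in Irf4-/- injected, 3.77 CPM in WT injected, 10.3 CPM in Irf4-/- control and 8.70 CPM in WT control. WT injected was the lowest library for both. Orc3, an origin recognition subunit chosen after its values were seen, was highest in WT injected, at 68.4 CPM in Irf4-/- injected, 99.1 CPM in WT injected, 59.9 CPM in Irf4-/- control and 61.2 CPM in WT control. Of 24 G1/S regulators 2 rose with genotype in edgeR and 0 rose or fell with injection. E2f2 rose by 1.09 (SE 0.178, adjusted p = 0.0121) and Cdkn2c, an inhibitor of the G1 cyclin-dependent kinases, by 0.65 (SE 0.123, adjusted p = 0.0280). In this list 8 were at an unadjusted p under 0.05 for genotype, 7 of them higher, and 11 for injection, 1 of them higher. Cdkn2c was at 44.3 CPM in Irf4-/- injected, 29.2 CPM in WT injected, 40.9 CPM in Irf4-/- control and 25.3 CPM in WT control, above WT in both Irf4-/- libraries. E2f2, an activating E2F, was at 63.9 CPM in Irf4-/- injected, 21.5 CPM in WT injected, 74.8 CPM in Irf4-/- control and 47.6 CPM in WT control. The repressor E2f7 was at 7.13 CPM in Irf4-/- injected, 1.89 CPM in WT injected, 5.72 CPM in Irf4-/- control and 5.01 CPM in WT control. Its relative E2f8 was at 12.3 CPM in Irf4-/- injected, 4.58 CPM in WT injected, 16.96 CPM in Irf4-/- control and 11.5 CPM in WT control, each lowest in WT injected. Among 30 mitosis and G2/M genes 3 rose with genotype (Mki67, Top2a and Tpx2) and 3 fell with injection (Mki67, Top2a and Kif11). There were 24 at an unadjusted p under 0.05 for genotype, all of them higher, and 23 for injection, 0 of them higher. Mki67, the proliferation marker, rose by 0.68 (SE 0.125, adjusted p = 0.0230) and was at 200.3 CPM in Irf4-/- injected, 105 CPM in WT injected, 265 CPM in Irf4-/- control and 196 CPM in WT control. Top2a, a topoisomerase that untangles DNA, fell by 0.78 with injection (SE 0.127, adjusted p = 0.0225). The mitotic genes had a median of 0.70 for Irf4-/- injected against WT injected, 0.46 for Irf4-/- control against WT control, -0.50 for injection in Irf4-/- and -0.78 for injection in WT, each farther from 0 than that of the 48 genes; the difference between the lists was not tested.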

How the data were processed

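The authors deposited raw counts of reads for each gene, and FPKM values, for 4 libraries. TopHat and edgeR are named as tools and mm10 as build, per the submitters' processing notes; versions, the counting tool, the annotation and the use of strand were not given in the sources used here. The deposited FPKM values gave whole-number gene lengths (tolerance 0.01 bp) wherever a count was above 0, 72455 values in all. Gene identifiers were matched to GENCODE symbols for 34490 of 35275 genes; the other 785 held at most 0.0887% of a library's counts. Groups came from the sample titles, in which treated means injected.

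Counts were scaled by TMM in edgeR 4.0.16 (R 4.3.3). Log2 ratios of CPM used a prior count of 2, for genes whose mean reached 1 CPM. Genes reaching 1 CPM in 2 or more libraries were tested with edgeR's quasi-likelihood test (genotype plus injection, two-sided, Benjamini-Hochberg over 11998 genes, threshold 0.05), with 9.62 prior degrees of freedom and a dispersion of 0.00996. A standard error is the size of the log2 change over the root of F. Genes are said to rise or fall only by this test. At these depths 3 counts, the limit that a count of 0 allows, are 0.142 to 0.189 CPM. The fit was tested on simulated data. Alternatives were other scalings, filters, folds and prior counts, DESeq2 1.42.0, limma-voom and limma 3.58.1 on log2(FPKM + 0.1).

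The genes and lists were chosen with earlier results of these data known. All 48 genes could be named; values are given for those that passed the test, the highest by FPKM in each role and the 3 farthest from 0 in each direction in each pair, with others chosen after their values were seen. From each other list up to 4 genes are named. A gene of these lists is not reported here. Promoter letters came from RefSeq (GRCm38.p6).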

Additional observations from a re-analysis of the deposited data

Results flagged for a closer look

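Rpa2, a subunit of the single-strand binding protein, stood on opposite sides of 0 in the genotypes. Its log2 ratio of injected to control was -0.14 (-0.26 to -0.01) in Irf4-/- and 0.26 (0.14 to 0.37) in WT, a difference of -0.396 between Irf4-/- and WT. The intervals cover counting error only, and the share of all genes with intervals on opposite sides of 0 was not counted. Of all genes, 18.9% had an interval below 0 for injection in Irf4-/- and 28.4% had one above 0 in WT. Whether Rpa2 stands out from that background is therefore not known. With 1 library per group the difference was not tested.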

How the results depend on the processing

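No paired analysis was possible because each group had 1 library and the labels give no replicate numbers. Of 274 alternative values, 231 kept their direction and side of the threshold or moved little. The 36 genes lowest in WT injected became 34 to 37 and the 26 highest in Irf4-/- control 26 or 27. No scaling moved the median of all genes by more than 0.0169. The genotype count of 1 became 4 with no filter and 0 with the other term left out or limma on FPKM. The injection count of 1 became 3 with upper quartile scaling, 6 with library totals, 10 with no filter, 2 with a 5 CPM filter, 4 at an adjusted p under 0.1, and 0 with limma-voom, limma on FPKM or the other term left out. The cause was not tested. Cdt1, at 0.0026 for injection (adjusted p = 0.992; 0.965 to 0.9999 over alternatives), had no clear sign: it was at -0.0045 with library totals and -0.0071 with limma on FPKM. At 2-fold the counts were 3 for Irf4-/- injected against WT injected, 0 for Irf4-/- control against WT control, 0 for Irf4-/- injected against Irf4-/- control and 7 for WT injected against WT control. For Irf4-/- control against WT control the count of 1 became 2 with median-of-ratios scaling or FPKM and 0 at a mean of at least 5 CPM, and the log2 ratio of the summed CPM became 0.021 without Dnmt1. Leaving out a library leaves 1 pair per effect and no test. Depth limits Fen1, with 11 to 30 counts a library.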

Other observations

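The less abundant replication genes had the larger median ratios. The 24 genes with the lower mean CPM (1.15 to 27.9) had a median log2 ratio of 0.42 for Irf4-/- injected against WT injected and -0.56 for WT injected against WT control. The 24 with the higher mean CPM (28.6 to 325.7) had medians of 0.16 for Irf4-/- injected against WT injected and -0.38 for WT injected against WT control. The split was made after the values were seen, and its difference was not tested.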
